A study of Mus musculus with 12 samples.

Results

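Rhox5, Prl2c2, Prl2c3 and Shisal2b are 4 of the 55401 genes measured by RNA sequencing in 12 mouse tumour libraries. They are genes of placenta and germline, or of little known use, that were read at very high levels in some of these tumours and near 0 in others. They were chosen by their measured levels, namely a high level without an IL-10 protein (Ctrl-IgG, aCSF1R), a low level with IL-10-Fc, and an intermediate level in BF10 replicates 1 and 3. Those values are therefore described below without a test, and only the comparison of aCSF1R with Ctrl-IgG, which took no part in the choice, is tested for the members.

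Per the labels, C57BL/6 mice of unstated age and sex carried orthotopic oral tumours grown from MTC-Q1, a mouse oral cancer cell line, and were treated from a tumour size of 100 mm3. The 4 groups of 3 libraries received control IgG (Ctrl-IgG), an antibody against CSF1R (aCSF1R), the receptor through which macrophages are kept alive, interleukin-10 carried on an immunoglobulin Fc (IL-10-Fc), or BF10, in which interleukin-10 and the CSF1R antibody are 1 protein. Ctrl-IgG and aCSF1R are called the arms without IL-10 below, and IL-10-Fc and BF10 the IL-10 arms, with 6 libraries each. The number of doses is given as 4 in the design text and as 6 in the treatment protocol. The labels do not say that the 3 libraries of a group came from separate mice, so a p-value measures the spread between libraries, which may be in part technical.

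Rhox5 encodes a homeodomain transcription factor of the reproductive homeobox cluster on the X chromosome, which is known for expression in placenta, testis and epididymis and for being switched on in many tumour cell lines. Prl2c2 and Prl2c3 encode proliferins, secreted relatives of prolactin that trophoblast giant cells of the placenta release and that act on blood vessel growth. Shisal2b encodes a small predicted membrane protein of the Shisa-like group, for which little function is described. In normal oral epithelium none of these genes is a marker.

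In GRCm38 (GENCODE M21), Rhox5 (ENSMUSG00000095180) lies on the forward strand at chrX:37804842-37808876, and the 3 other genes lie on the reverse strand of chromosome 13. Prl2c3 (ENSMUSG00000056457) is at chr13:12790816-12800079, Prl2c2 (ENSMUSG00000079092) at chr13:12996125-13005383 and Shisal2b (ENSMUSG00000042655) at chr13:104845283-104863893. All 4 are annotated as protein coding.

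Prl2c2 and Prl2c3 are nearly the same sequence, which bears on every value of the pair. Their coding sequences, 675 bases each, matched at 672 positions (99.6%), and the 3 differences, counted from the first coding base with the Prl2c2 base first, are T14C, C200A and T319G. The first 90 coding bases of each, in capitals where they differ, show how little separates them in a read.
Prl2c2 (ENSMUST00000110594, coding bases 1 to 90): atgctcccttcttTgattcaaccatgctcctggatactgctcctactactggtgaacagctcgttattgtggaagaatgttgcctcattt
Prl2c3 (ENSMUST00000099805, coding bases 1 to 90): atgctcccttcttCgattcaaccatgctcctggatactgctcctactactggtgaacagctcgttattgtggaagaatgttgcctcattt
Of the 768 windows of 75 bases in the Prl2c2 transcript, 615 (80.1%) also occur in a transcript of another gene, and so do 547 of the 783 windows (69.9%) of Prl2c3. For Rhox5 (680 windows) and Shisal2b (1236 windows) the count is 0. The split of reads between Prl2c2 and Prl2c3 is therefore an estimate of the counting program, and the separate levels of the pair are uncertain.

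The promoters of the members are shown as background, so that a reader can see what their upstream sequences hold. The members were chosen for a like pattern of levels, so nothing about shared control is read from that pattern. RefSeq (GRCm38.p6) gave the 250 bases before the start of 3 of the 4 members; Prl2c2 had no entry. Capitals mark matches on either strand to the ETS core CGGAAG, to AGATAA for the GATA factors, to TGANTCA for the AP-1 factors and to the CCAAT box, and on the forward strand to a TATA box, spelled TATAAA or else TATAAG.
Rhox5 (chrX:37754358-37754607, forward strand): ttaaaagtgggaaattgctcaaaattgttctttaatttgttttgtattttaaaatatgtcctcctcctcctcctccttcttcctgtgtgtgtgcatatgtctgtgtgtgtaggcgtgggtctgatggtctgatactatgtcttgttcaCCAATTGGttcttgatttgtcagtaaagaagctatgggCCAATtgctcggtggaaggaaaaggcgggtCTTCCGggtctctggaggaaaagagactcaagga
Prl2c3 (chr13:12800080-12800329, reverse strand): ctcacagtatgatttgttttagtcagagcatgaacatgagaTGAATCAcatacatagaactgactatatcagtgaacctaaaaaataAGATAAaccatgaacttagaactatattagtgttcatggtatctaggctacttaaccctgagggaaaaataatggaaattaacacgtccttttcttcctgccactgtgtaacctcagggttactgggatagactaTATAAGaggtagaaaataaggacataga
Shisal2b (chr13:104863894-104864143, reverse strand): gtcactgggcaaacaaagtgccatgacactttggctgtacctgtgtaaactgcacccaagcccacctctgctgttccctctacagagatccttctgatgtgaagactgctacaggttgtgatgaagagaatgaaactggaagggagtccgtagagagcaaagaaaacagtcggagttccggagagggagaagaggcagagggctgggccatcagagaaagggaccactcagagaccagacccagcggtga
The Rhox5 window, which precedes a RefSeq start 50.2 kb upstream of the GENCODE gene placed above and is not the promoter of that start, held an ETS core and 3 overlapping or separate CCAAT matches. Among 32851 promoter windows of the same length, 13.6% held the ETS core and 33.9% a CCAAT match. The Prl2c3 window held a TATA box 28 bases before the start (found in 11.2% of windows), a GATA match (9.99%) and an AP-1 match (6.75%). The Shisal2b window held none of these letters. No motif was common to the 3 windows, and their CpG counts were 4, 1 and 4 for Rhox5, Prl2c3 and Shisal2b against a median of 6 over all windows. These matches are letters in a window and not measured binding.

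Marker genes divided the libraries in ways that the labels do not give, and H2-Ea went against the strain label. Xist, the RNA that silences an X chromosome in female cells, was at most 0.04 FPKM (fragments scaled to transcript length and to the fragments of the library) in the arms without IL-10 and 17.1 to 30.7 FPKM in the IL-10 arms. The summed level of 4 Y-linked genes was 7.94 to 18 FPKM in the former, at most 0.02 in IL-10-Fc, while BF10 replicates 1, 2 and 3 had 0.07, 0.01 and 5.08 FPKM. H2-Ea, which C57BL/6 mice do not transcribe, was at most 0.27 FPKM in the former and 553 to 1727 FPKM in the latter. Krt8, Krt18, Krt7 and Krt19, keratins of simple epithelium, were at most 0.28 FPKM in the former, so an epithelial label was not borne out there by these genes. Of other epithelial genes, Epcam, Cdh1 and Cldn7 also had lower group means there than in the IL-10 arms. Esrp1 went the other way, at 0.14 to 7.59 FPKM there against 0.03 to 0.51 FPKM. The sum of 8 squamous genes was 1274 to 1994 FPKM in Ctrl-IgG replicate 3 and aCSF1R replicates 1 and 2, against 1.69 to 4.04 in the other 3 of these libraries and 17.7 to 33.2 in the IL-10 arms. Treatment with an interleukin-10 protein therefore cannot be told apart from the other differences that these genes mark (sex chromosomes, mouse strain, kind of epithelium) in any comparison across the arms. FPKM sums ranged from 637596 to 976950, and relative depth, taking the first Ctrl-IgG library as 1, from 0.94 to 1.41.

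Rhox5 was among the most abundant RNAs of the arms without IL-10. It measured 688, 791 and 597 FPKM in Ctrl-IgG replicates 1 to 3 and 684, 575 and 691 FPKM in aCSF1R replicates 1 to 3, which placed it between rank 143 and rank 166 of all genes. In IL-10-Fc it measured 0.79, 1.31 and 1.41 FPKM. In BF10 it measured 20.6, 0.37 and 111 FPKM in replicates 1, 2 and 3. The BF10 libraries thus spanned the gap, with replicate 2 below every IL-10-Fc library and replicate 3 nearest to the level of the arms without IL-10. The group means were 692 ± 96.8 (SD, n = 3) for Ctrl-IgG, 650 ± 65.1 for aCSF1R, 1.17 ± 0.333 for IL-10-Fc and 44.1 ± 59.0 for BF10. In bulk tissue, fewer cells that make an RNA and less RNA per cell cannot be told apart.

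Shisal2b had the widest range of all 15813 genes that entered the tests, 10.96 on the scale log2(FPKM + 1). It measured 1448, 2469 and 1118 FPKM in Ctrl-IgG and 1167, 967 and 1092 FPKM in aCSF1R, at rank 44 to 92 of all genes. In IL-10-Fc it measured 0.34, 0.80 and 0.74 FPKM. BF10 replicates 1, 2 and 3 had 42.9, 0.24 and 165 FPKM. The order of the BF10 libraries was that seen for Rhox5, and the order of the group means was also alike: 1678 ± 704 in Ctrl-IgG, 1075 ± 101 in aCSF1R, 69.3 ± 85.3 in BF10 and 0.627 ± 0.250 in IL-10-Fc (SD, n = 3 each). BF10 and IL-10-Fc overlapped for both genes because of BF10 replicate 2.

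Prl2c2 measured 923, 2156 and 1099 FPKM in Ctrl-IgG replicates 1 to 3 and 735, 589 and 530 FPKM in aCSF1R. It measured 8.96, 5.83 and 4.55 FPKM in IL-10-Fc and 47.5, 0.23 and 160 FPKM in BF10. Its range over the libraries, 10.78 on the log2(FPKM + 1) scale, was the second among the tested genes after Shisal2b. Prl2c2 did not fall as low in IL-10-Fc as Rhox5 and Shisal2b did: the IL-10-Fc mean was 0.641% of the mean of the arms without IL-10, against 0.174% for Rhox5 and 0.0455% for Shisal2b.

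Prl2c3 was the lowest of the 4 in the arms without IL-10 and the highest, relative to those, in the others. It measured 94.5, 276 and 147 FPKM in Ctrl-IgG and 65.3, 43.8 and 56.4 FPKM in aCSF1R. It measured 18.6, 8.04 and 3.46 FPKM in IL-10-Fc and 20.3, 1.61 and 19.3 FPKM in BF10. The IL-10-Fc mean, 10.02 ± 7.75 FPKM, was 8.81% of the mean of the arms without IL-10, and it lay within the spread of the BF10 mean of 13.7 ± 10.5 FPKM (SD, n = 3 each).

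**Figure D1:**
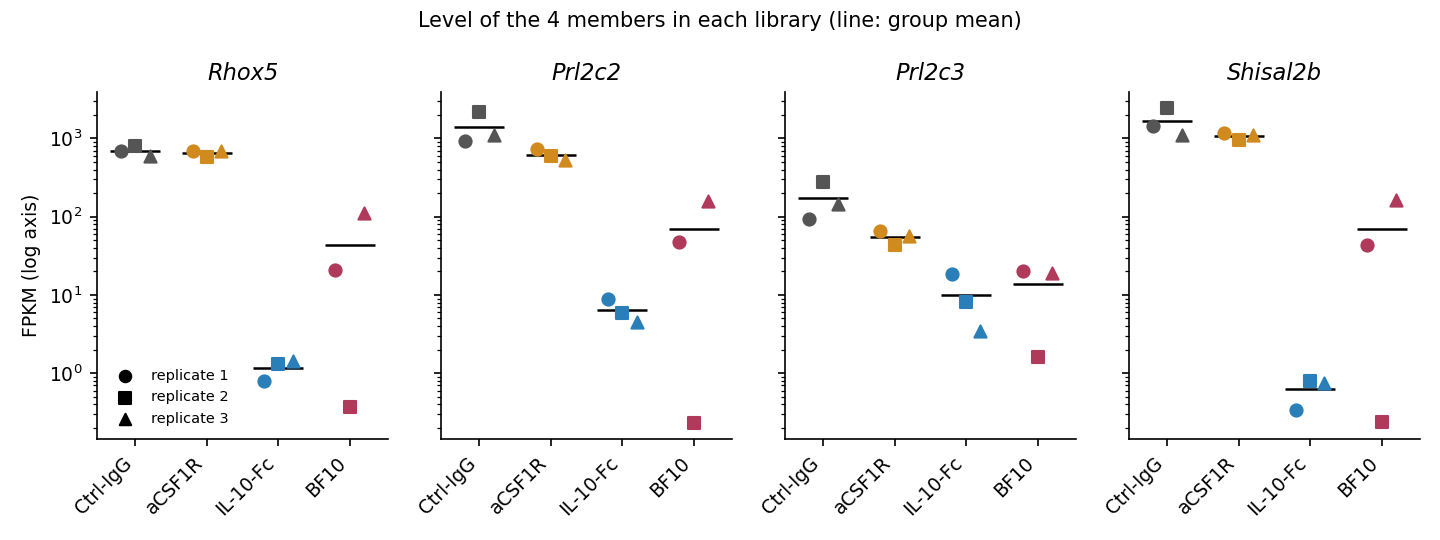
FPKM of Rhox5, Prl2c2, Prl2c3 and Shisal2b on a log axis in each of the 12 libraries, by group, with symbols for the replicate and a line at the group mean. The Ctrl-IgG and aCSF1R libraries lie together at the top, IL-10-Fc lies low, and BF10 replicates 1 and 3 lie between while replicate 2 lies low.

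On the log2(FPKM + 1) scale, BF10 minus Ctrl-IgG was -5.53 for Rhox5, -5.93 for Prl2c2, -3.92 for Prl2c3 and -6.25 for Shisal2b, with -8.32, -7.49, -4.09 and -9.94 for IL-10-Fc against Ctrl-IgG in the same order. The BF10 values rest on which library is taken. Without BF10 replicate 3 the difference from Ctrl-IgG was -6.98 for Rhox5, -7.39 for Prl2c2, -4.40 for Prl2c3 and -7.75 for Shisal2b, and BF10 replicate 2 alone gave -8.97, -10.04, -5.91 and -10.32.

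Expressed as a share of the mean of the arms without IL-10, BF10 replicate 3 held 16.6% of the Rhox5 level, 15.9% of Prl2c2, 17.0% of Prl2c3 and 11.96% of Shisal2b. Without Ctrl-IgG replicate 2 in that mean the shares were 17.2%, 20.7%, 23.7% and 14.2% in the same order. The level in this library took part in the choice of the members, so that nothing is read from the likeness of the shares. BF10 replicate 1 held 3.07% of Rhox5, 4.72% of Prl2c2 and 3.12% of Shisal2b, but 17.8% of Prl2c3. BF10 replicate 2 held 0.0552%, 0.0229% and 0.0174% of Rhox5, Prl2c2 and Shisal2b and 1.42% of Prl2c3.

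These shares were set beside 33 other genes that had at least 5 FPKM in each library without IL-10 and at most 0.05 FPKM in each IL-10-Fc library, a list that was also chosen by values and is a description only. Their median share was 14.7% in BF10 replicate 3 (quartiles 10.2% and 16.4%), 1.72% in replicate 1 (0.671% and 2.89%) and 0 in replicate 2, where 24 of the 33 were listed at 0. In BF10 replicate 3, 7 of these genes had a higher share than Rhox5, 10 than Prl2c2, 7 than Prl2c3 and 21 than Shisal2b. In BF10 replicate 1, 7 were above Rhox5 and Shisal2b, 2 above Prl2c2 and 0 above Prl2c3. The 4 Y-linked genes Eif2s3y, Ddx3y, Kdm5d and Uty had larger shares in BF10 replicate 3, from 21.4% to 44.9%, and at most 1.43% in BF10 replicates 1 and 2. Their levels are low (Uty 0.15 FPKM and Eif2s3y 3.29 FPKM in BF10 replicate 3), so these shares are coarse.

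**Figure D2:**
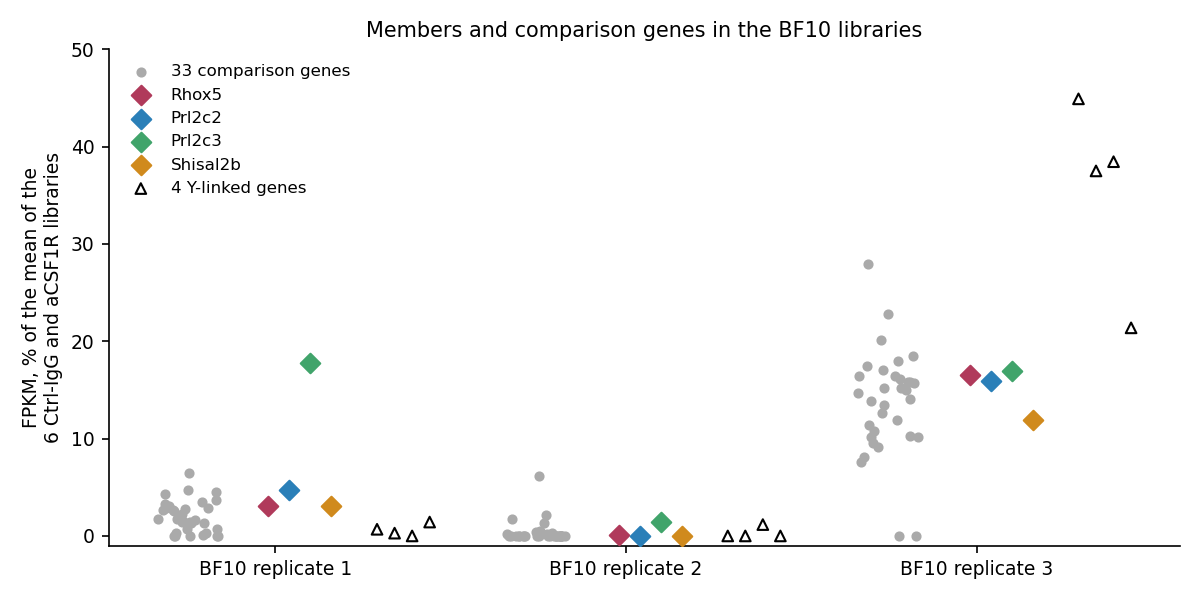
FPKM in each BF10 library as a percent of the mean of the arms without IL-10, for the 4 members (diamonds), 33 comparison genes (grey points) and 4 Y-linked genes (open triangles). The members lie among the comparison genes in BF10 replicate 3, and in replicate 1 only Prl2c3, at 17.8%, lies above them all.

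Most skeletal muscle genes were also higher in BF10 replicate 3 than in the other libraries with IL-10 (7 of 8), the exception being Tnni2, at 42.4 FPKM there, 44.9 FPKM in BF10 replicate 2 and up to 46.8 FPKM in IL-10-Fc. The sum of 8 muscle genes was 136 FPKM in that library against 28.3 and 56.2 in the other 2 BF10 libraries and 22.4 to 56.2 in IL-10-Fc, and Acta1, the actin of muscle fibres, was 30.5 FPKM against at most 0.30. In Ctrl-IgG and aCSF1R the muscle sum ran from 34.7 to 1042 FPKM. In BF10 replicate 3, 0 of the 8 muscle genes was listed at 0, and in the other 2 BF10 libraries 2 and 1 were. The mitochondrial share of the FPKM sum was 6.57% in BF10 replicate 1 and 3.12% in BF10 replicate 3, within a range of 2.99% to 9.04% over all libraries. The part of these measures in the members' levels was not tested.

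The balance of the proliferin pair, as the counting program split its reads, differed between IL-10-Fc and the arms without IL-10, and among BF10 libraries. That split is an estimate between nearly identical sequences, so the ratios of the pair are uncertain. Prl2c2 divided by Prl2c3 was 7.496 to 13.4 (median 9.59) in the arms without IL-10, 0.483 to 1.31 in IL-10-Fc. BF10 replicates 1, 2 and 3 gave ratios of 2.34, 0.143 and 8.31. Prl2c2 made up 88.2% to 93.1% of the summed Prl2c2 and Prl2c3 FPKM in the former 6 libraries, and 32.6% to 56.8% in IL-10-Fc. The lowest share, 12.5%, was that of BF10 replicate 2, where the sum was only 1.84 FPKM. Prl2c2 divided by Shisal2b was 0.4855 to 0.983 in the arms without IL-10 and 6.15 to 26.4 in IL-10-Fc. In the BF10 libraries, among which each gene varied more than 100-fold, that ratio was 0.958 to 1.11. It is coarse in BF10 replicate 2, at 0.23 over 0.24 FPKM, and in IL-10-Fc, where Shisal2b was 0.34 to 0.80 FPKM. BF10 levels also took part in the choice of the members, so nothing is read from the likeness of these ratios.

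The sum of the pair depends less than either level on how reads are split between the 2 genes, whose transcripts of 842 and 857 bases are of nearly one length. Some windows are shared with other genes too, 154 of each with the pseudogene Gm7040, which was read at 0.24 FPKM at most. It was 1017, 2431 and 1246 FPKM in Ctrl-IgG, 800, 633 and 587 in aCSF1R, 27.5, 13.9 and 8.01 in IL-10-Fc, whereas BF10 replicates 1 to 3 had 67.7, 1.84 and 179 FPKM. As a share of the mean of the arms without IL-10, BF10 replicates 1, 2 and 3 held 6.05%, 0.165% and 16.0% and the IL-10-Fc libraries 0.716% to 2.46%. Summed, proliferin RNA therefore followed the order of Rhox5 and Shisal2b in BF10 but remained higher in IL-10-Fc than either, on this relative scale.

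**Figure D3:**
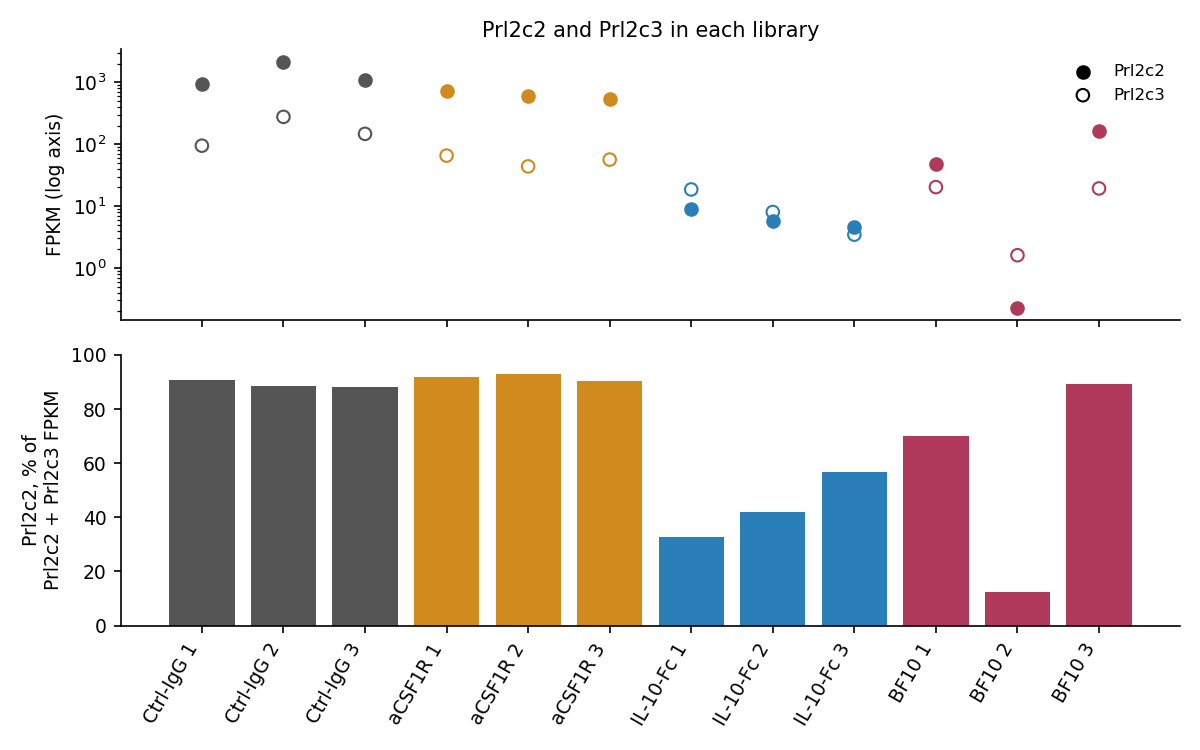
Upper panel, FPKM of Prl2c2 (filled) and Prl2c3 (open) in each library on a log axis; lower panel, Prl2c2 as a percent of the sum of both. Prl2c2 made up 88.2% or more of the sum in the arms without IL-10 and in BF10 replicate 3 (89.3%), and less in the remaining 5 libraries.

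Whether the CSF1R antibody alone changed the members was tested against Ctrl-IgG by limma over all 15813 tested genes, with a call at an adjusted p under 0.05 and a change of at least 1.5-fold. No member passed (0 of 4), and neither did any other gene, so the share called was 0.0% of all genes tested; 437 genes had an unadjusted p under 0.05. The change of Rhox5 was -0.09 ± 1.14 (SE) on the log2(FPKM + 1) scale with a limma adjusted p of 1.00. Shisal2b gave -0.57 ± 1.31 (limma adjusted p 0.961). For Prl2c2 the change was -1.08 ± 1.32 (limma adjusted p 0.958) and for Prl2c3 -1.51 ± 0.78 (limma adjusted p 0.958). The SE comes from a spread shared by all groups, which the BF10 libraries widen.

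Prl2c2 and Prl2c3 were lower in each of the 3 aCSF1R libraries than in each of the 3 Ctrl-IgG libraries. The pair shares most of its sequence windows, so its genes are not independent observations. How many other genes part groups of 3 libraries in this way, here or below, was not counted. A two-sided exact permutation test of each gene gave p = 0.1 for Prl2c2 and Prl2c3, 0.2 for Shisal2b and 0.5 for Rhox5, and 0.1 is the smallest p that 3 libraries against 3 allow. Ctrl-IgG replicate 2 had the highest level of all 4 members and also a mitochondrial share of 7.19%. Without it the change was -0.72 for Prl2c2, -1.10 for Prl2c3 and -0.25 for Shisal2b, each smaller by more than 0.3, and 0.01 for Rhox5. The squamous and muscle genes that were high in Ctrl-IgG replicate 3 and aCSF1R replicates 1 and 2 divided both groups. Rhox5 was 575 to 684 FPKM in those 3 libraries and 688 to 791 FPKM in the other 3, without overlap, while Prl2c2, Prl2c3 and Shisal2b overlapped between them. After rescaling each library to the same sum (TPM), Rhox5 overlapped as well, at 875 to 994 TPM against 965 to 994 TPM. The part of the squamous and muscle genes in the Rhox5 level was not tested.

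The members sit in families, and most relatives were too low to enter the test. Of 41 other Rhox genes in the table, 22 were above 0 in any library and 4 passed the filter of at least 1 FPKM in at least 3 libraries. A gene read in the arms without IL-10 alone could pass through them, so that its call as lower in the IL-10 arms follows in part from the filter, here and in the lists below. The same holds for the call as higher of a gene read in the IL-10 arms alone. Rhox4a2, Plac1, Phlda2, Sycp1 and Igf2bp1, described below, passed in that way. Rhox2h was 30.5 to 50.7 FPKM in the arms without IL-10, at most 0.08 FPKM in IL-10-Fc, and 1.81, 0 and 5.30 FPKM in BF10 replicates 1 to 3. Rhox10, also a homeobox gene of the cluster, was 7.25 to 19.8 FPKM in the former, 0 in every IL-10-Fc library and 0.76, 0.04 and 0.95 FPKM in BF10. Rhox2g was 1.37 to 1.85 FPKM in the former and listed at 0 in all 6 others. All 3 were called lower in BF10 and in IL-10-Fc than in Ctrl-IgG, while Rhox4a2 went the other way, from at most 0.15 FPKM to 3.49 to 6.35 FPKM. The Rhox2, Rhox3 and Rhox4 genes are arrays of near copies, so the level of any single copy is uncertain.

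Among 24 other prolactin family genes, 23 were above 0 somewhere and only Prl2c5 passed the filter. Prl2c5, a further proliferin-type gene with a coding sequence 93.0% identical to that of Prl2c2, was 1.48 to 2.07 FPKM in Ctrl-IgG, 0.77 to 1.39 FPKM in aCSF1R, at most 0.08 FPKM in IL-10-Fc and 0.17, 0 and 0.26 FPKM in BF10. It passed the filter through the arms without IL-10, where it is high, so no p is given for it. It shares windows with Prl2c2 (63 of the 768), so its level is uncertain too. Prl6a1 was 0.66 to 0.99 FPKM in the arms without IL-10 and 0.07 to 0.42 FPKM in the others and did not enter the test. Of 10 Shisa genes, 2 were tested. Shisa5, a gene of the p53 response, was 136 to 267 FPKM in Ctrl-IgG and 73.8 to 123 FPKM in IL-10-Fc, which was called lower, and 145 to 191 FPKM in BF10, which was not. Shisa4 was called in neither.

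Other genes of trophoblast, germline and fetal tissue moved in both directions. Over the Rhox, prolactin, Shisa, trophoblast, germline and oncofetal lists (151 genes without the members, 35 of them tested), 12 were called higher and 11 lower in BF10 than in Ctrl-IgG, where 11.8% of all tested genes were called higher and 13.2% lower. IL-10-Fc set against Ctrl-IgG gave 9 that were higher and 15 that were lower (10.1% and 23.6% of all genes). Against aCSF1R, 10 were higher and 14 lower in BF10 (11.0% and 14.0% of all genes), and 9 were higher and 18 lower in IL-10-Fc (11.0% and 31.2% of all genes). These comparisons share libraries. Leaving out BF10 replicate 3 or BF10 replicate 1 gave 21 and 23 calls in BF10 against Ctrl-IgG. In aCSF1R against Ctrl-IgG and in BF10 against IL-10-Fc, limma called 0 of the 35 (0.0% and 0.0126% of all genes), with 1 and 6 of them at an unadjusted p under 0.05.

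Of 13 tested trophoblast genes, 5 were higher and 3 lower in BF10 than in Ctrl-IgG, where 11.8% and 13.2% of all genes were. Plac1, a placental membrane protein gene, was 0.11 to 0.76 FPKM in the arms without IL-10 and 3.24 to 6.36 FPKM in the 6 others. Phlda2, an imprinted gene that limits placental growth, rose from at most 1.02 to between 1.93 and 12.3 FPKM. Psg17, Gata3 and Mmp9 rose as well, of which T cells also use Gata3 and neutrophils Mmp9. Peg10, an imprinted gene needed for the placenta, fell from 3.50 to 8.01 FPKM to at most 1.28 FPKM. Eomes and Sox2, transcription factors of trophoblast stem and early embryonic cells, fell from at least 5.19 and 6.94 FPKM to at most 1.70 and 1.19 FPKM. In each of these 3 genes that fell, BF10 replicate 3 was the highest of the 6 libraries with IL-10.

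Of 5 tested germline genes, Dppa4 and Xlr3a fell and Sycp1 rose in BF10 against Ctrl-IgG (13.2% and 11.8% of all genes). Dppa4, a gene of pluripotent and germ cells, was 13.4 to 16.1 FPKM in the arms without IL-10, at most 0.03 FPKM in IL-10-Fc and 0.20, 0 and 2.51 FPKM in BF10 replicates 1 to 3. Dppa4 passed the filter through the arms without IL-10, so no p is given for it. Sycp1, a gene of meiotic chromosome pairing, was at most 0.01 FPKM in the former and 0.35 to 1.59 FPKM in the others. Of 10 tested oncofetal genes, 5 rose and 2 fell in BF10 against Ctrl-IgG (11.8% and 13.2% of all genes). In IL-10-Fc against Ctrl-IgG, 2 rose and 3 fell (10.1% and 23.6% of all genes). In BF10 against aCSF1R, 3 rose and 3 fell (11.0% and 14.0% of all genes). Afp, the fetal albumin-like protein, was 35.5 to 68.7 FPKM in the arms without IL-10, 0.52 to 0.59 FPKM in IL-10-Fc and 1.82, 0.57 and 8.45 FPKM in BF10 replicates 1 to 3. The order of the BF10 libraries for Afp and Dppa4 was that of Rhox5, Prl2c2 and Shisal2b. Igf2bp3, an RNA-binding protein of fetal tissue, also fell in BF10 against Ctrl-IgG, and Tpbg, Hmga2, Meg3, Mest and Igf2bp1 rose. The order was another for Igf2bp3, Peg10 and Eomes, where BF10 replicate 1 was the lowest, at 0.08, 0.10 and 0.63 FPKM. BF10 replicate 2 had 0.33, 0.18 and 0.98 FPKM of them.

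**Figure D4:**
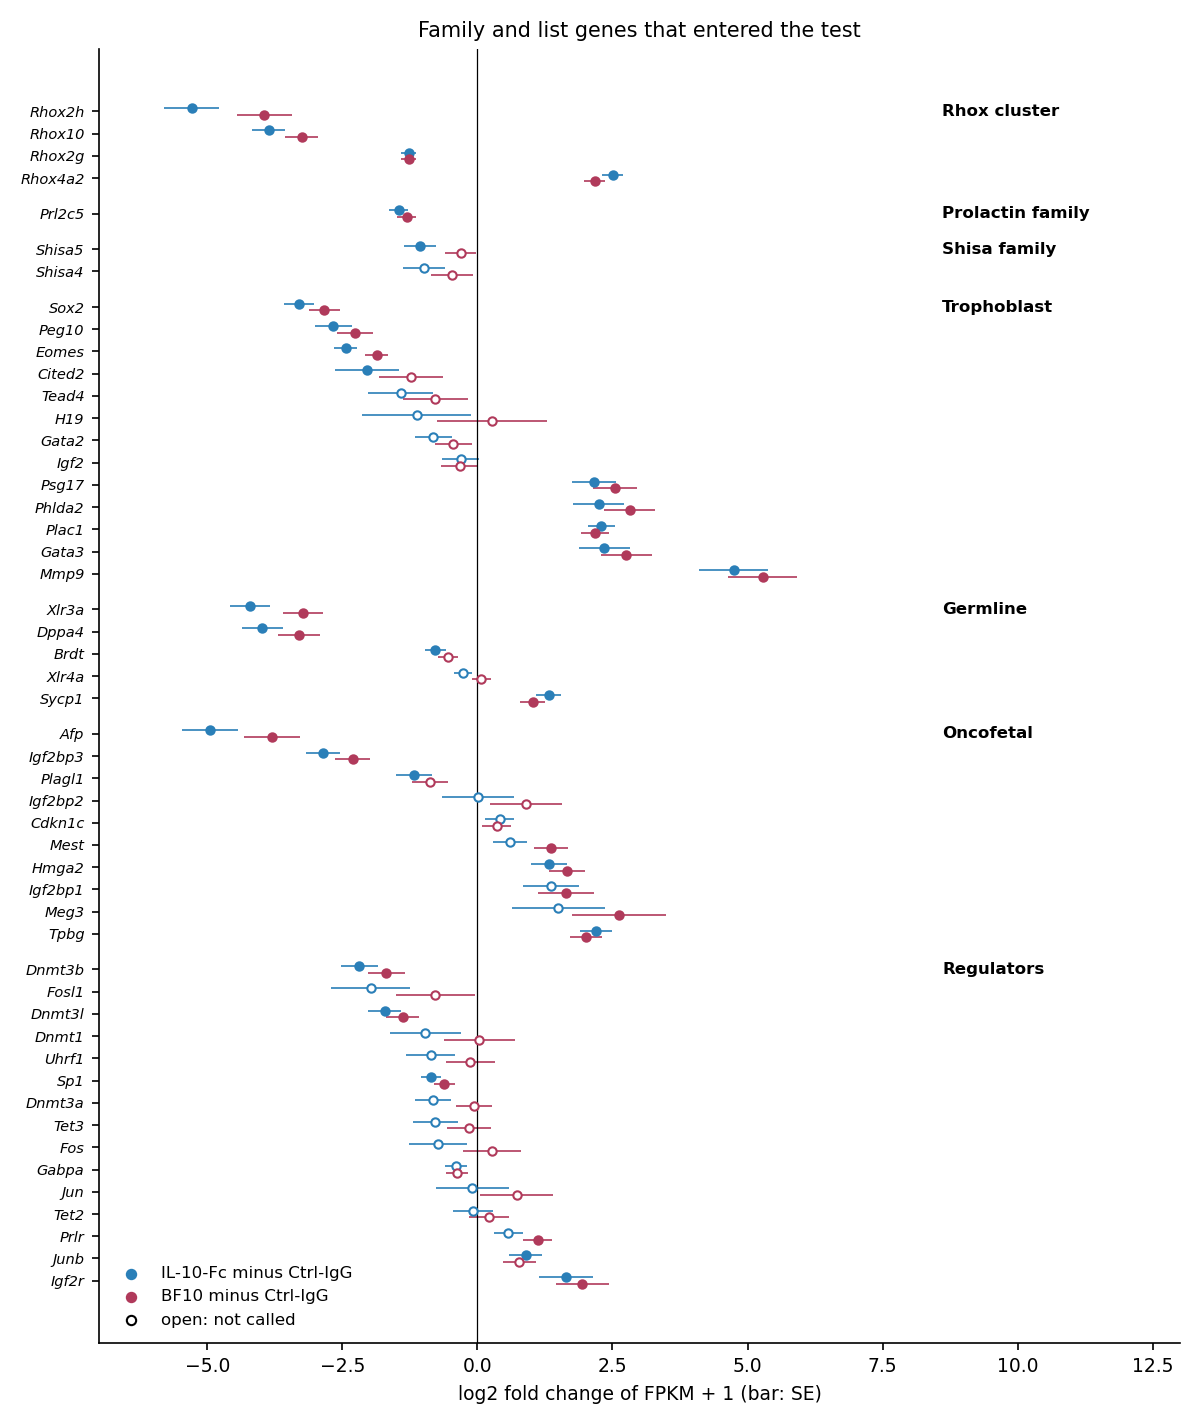
Limma log2 fold changes of FPKM + 1, with SE, in IL-10-Fc (blue) and BF10 (red) against Ctrl-IgG for the tested genes of 7 lists, filled where called. Genes of each of the trophoblast, germline and oncofetal lists lie on both sides of 0.

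A further list of 16 genes, of which 15 were tested, held genes that write or read DNA methylation and candidate factors for the members' promoters. It also held the receptor genes Igf2r and Prlr. In BF10 against Ctrl-IgG, 2 were called higher and 3 lower, and the same numbers were called in IL-10-Fc, which lies near the share of all genes (11.8% and 13.2% in BF10, 10.1% and 23.6% in IL-10-Fc), so the values below describe single genes and not the list. Dnmt3b, a methyltransferase, was 3.92 to 7.60 FPKM in the arms without IL-10 and 0.27 to 2.35 FPKM in the others. Dnmt3l, its partner in germ cells, was 3.58 to 8.04 FPKM and 0.34 to 1.99 FPKM. Sp1, a widely used transcription factor, was lower too, and Igf2r, a receptor that binds proliferin, was higher, from at most 3.08 FPKM to 3.71 to 16.7 FPKM. The other gene called higher in BF10 against Ctrl-IgG was Prlr, the prolactin receptor gene. The maintenance methylation genes Dnmt1 and Uhrf1 did not pass the test, with changes in BF10 of 0.03 ± 0.66 and -0.13 ± 0.45 on the log2(FPKM + 1) scale.

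Of the protein-coding genes that start within 500 kb of a member, 15 other genes entered the test. Among them 7 were called lower in BF10 than in Ctrl-IgG (13.2% of all genes were) and 8 in IL-10-Fc (23.6% of all genes), the one added being Actn2, an actin-binding gene of muscle near Prl2c3, and 1 was called higher in both. Near Rhox5 there were 33, of which 5 were tested, and the calls were those of the Rhox genes above, since Zbtb33, a neighbour outside the homeobox family, changed by only -0.05 in BF10 against Ctrl-IgG. The nearest tested gene to Rhox5 that fell, Rhox2h, starts 132 kb away. Near Shisal2b, 3 of 5 genes were tested. Its nearest neighbours were Cwc27, a splicing gene whose start is 46.8 kb away, with 13.1 to 21.9 FPKM in the arms without IL-10 and 7.59 to 10.5 FPKM in the IL-10 arms, and Srek1ip1, which was not called. Cwc27 was called lower in BF10 by -0.90 on the log2(FPKM + 1) scale, where Shisal2b differed by -6.25. Near Prl2c2, 1 of 4 tested genes, Prl2c5, was lower in BF10, and Ero1lb, which lies beyond Prl2c3, was not called, with 7.70 to 11.1 FPKM in the arms without IL-10 and 7.90 to 11.6 FPKM in the IL-10 arms. Near Prl2c3, 3 of 5 tested genes were lower in BF10, namely Prl2c5, Heatr1 and Lgals8. Of the neighbours called lower, Prl2c5, Rhox2g, Rhox2h, Rhox10 and Actn2 passed the filter only through the arms without IL-10. Their calls therefore follow in part from the filter. All of them but Actn2 are also relatives of the members. These counts are small and were not tested, and nothing about the surroundings of the members is read from them.

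**Figure D5:**
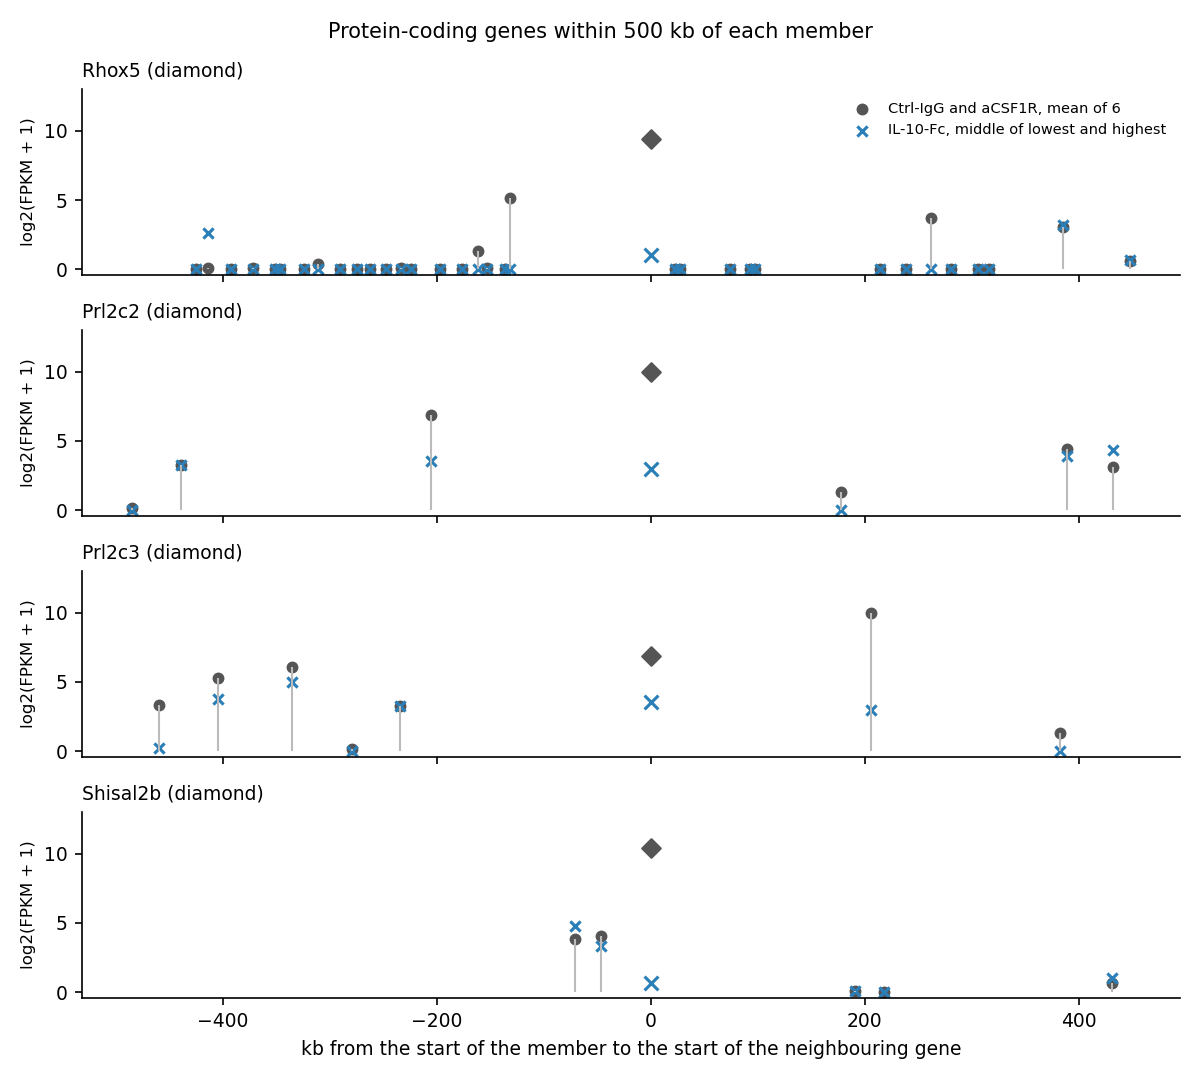
Level on the log2(FPKM + 1) scale of protein-coding genes within 500 kb of each member, by distance between gene starts, in the arms without IL-10 (grey, mean of 6) and in IL-10-Fc (blue crosses, middle of the lowest and highest library). In the arms without IL-10 each member (diamond) stands above its neighbours except Prl2c3, whose neighbour Prl2c2 is higher; in IL-10-Fc each member has a neighbour above it.

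Likeness between genes was measured as the mean absolute difference of log2(FPKM + 1) over the 12 libraries after centring each gene, a description over libraries that share groups. Rhox5 was closest to Shisal2b (0.56) and Prl2c2 (0.68), and Prl2c2 and Shisal2b were 0.94 apart. Prl2c3 was 1.66 from Prl2c2, 2.06 from Rhox5 and 2.53 from Shisal2b. Within the arms without IL-10 alone, the closest pair was Prl2c2 and Prl2c3 (0.23), followed by Rhox5 and Shisal2b (0.26). Most sequence windows of Prl2c2 and Prl2c3 are shared, so their likeness is not one of separate measurements.

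The gene most like the mean of the 4 members, predicted genes aside, was Fmr1nb, an X-linked gene of testis and tumours, with a difference of 0.42. It was 101 to 184 FPKM in the arms without IL-10, at most 0.09 FPKM in IL-10-Fc and 3.28, 0.08 and 16.5 FPKM in BF10 replicates 1 to 3. It was followed by Klra4 (0.65), a receptor gene of NK cells, the testis gene Tex13b (0.70), Whrn (0.76), which encodes a scaffold protein of sensory hair cells, and Xlr3c (0.82), a multicopy X-linked gene. Fmr1nb was also first for Rhox5, Prl2c2 and Shisal2b. The list for Prl2c3 was another: Rpl35a (0.58), a ribosomal protein gene, the quinone reductase gene Nqo1 (0.59), Hoxd10 (0.60), Tfpi (0.65) and Asns (0.65). Of these, Hoxd10 was low in the IL-10-Fc libraries (0.31 to 0.66 FPKM), and the others were read at 3.82 FPKM or more there, Tfpi for example with 8.15 to 20.2 FPKM there against 81.2 to 150 FPKM in the arms without IL-10.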

How the data were processed

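RNA from 12 tumour libraries was sequenced with a stranded mRNA kit on an Illumina NextSeq 550. The authors deposited FPKM values per gene and library, rounded to 2 decimals, and their processing notes name STAR 2.7.5a, RSEM 1.3.3, DESeq2 1.30.0 and GRCm38. The 4 deposited tables of comparisons (fold changes and p-values) were not used. Groups came from the treatment labels, and replicate numbers are in sample order. FPKM keep no read counts, so no interval is given for single values. Genes that reached 1 FPKM in 3 libraries or more were tested on log2(FPKM + 1) with limma 3.58.1 (trend, all 12 libraries, no covariates) in R 4.3.3, with Benjamini-Hochberg adjustment, and a call needed an adjusted p under 0.05 and a change of at least 1.5-fold. The fit was tested on simulated data.

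The members and lists were chosen with earlier results of these data known. Named genes are the members, genes of the written lists, neighbours that entered the test, and the 5 genes most like each member or their mean, without predicted genes; some genes are not reported here. Sequences are from RefSeq (GRCm38.p6) and GENCODE M21, compared with Biopython 1.88. Alternatives were another pseudocount, other filters, 3 scalings or covariates, the compared groups alone and each library left out.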

Additional observations from a re-analysis of the deposited data

How the results depend on the processing

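The 0 calls of the family genes in aCSF1R against Ctrl-IgG and in BF10 against IL-10-Fc, and the 0 calls of the members in aCSF1R against Ctrl-IgG, stayed at 0 under each of 13 alternatives, which included leaving out each library of the groups compared. With genes of a mean of at least 5 FPKM alone, which left 17 family genes, the calls were 10 in BF10 and 12 in IL-10-Fc against Ctrl-IgG, and 11 and 14 against aCSF1R, because fewer genes were tested. Leaving out each library in turn gave 21 to 23, 21 to 27, 22 to 24 and 25 to 29 calls in the same order. The Rhox5 change in aCSF1R, -0.09, became -0.218 with median-of-ratios size factors, 0.0186 as TPM and 0.0405 with the FPKM sum as a covariate. It ran from -0.19 to 0.0144 with each library left out, 0.0144 being without Ctrl-IgG replicate 2. The 33 comparison genes became 12 with a minimum of 10 FPKM and 13 with a maximum of 0.01 FPKM in IL-10-Fc, by construction, and their median share in BF10 replicate 3 was then 13.9% to 14.3%, while that in BF10 replicate 1 rose from 1.72% to 2.73% and 2.74%. No paired analysis was possible because the titles carry codes of unstated meaning, whose first parts any 2 groups share at most once (C6, in aCSF1R, IL-10-Fc and BF10), and replicates are numbered in sample order. The depth of single values is unknown, so levels under about 1 FPKM are coarse.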

Other observations

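The 33 comparison genes that were read in the arms without IL-10 (Ctrl-IgG, aCSF1R) and not in IL-10-Fc held 18 predicted or unnamed genes and 15 others. Of the 33, 11 (33.3%) were on the X chromosome, 8 of them with names of predicted genes, and 0 on chromosome 13, where 3 of the members lie. Of all 8314 placed genes with at least 5 FPKM in each library without IL-10, 3.51% were on the X chromosome and 3.72% on chromosome 13. The difference was not tested. The genes described below were picked out after their values were seen and stand for no theme of the list, which also held Cldn34c1, Cpne7, Fam83g and Vmn1r139. The transcription factor genes Hoxd13, Nkx2-5 and Alx1, known from limb, heart and face development, had means of 9.73, 8.41 and 13.4 FPKM in the arms without IL-10, and their shares of that mean in BF10 replicate 3 were 17.1%, 15.2% and 10.2%. The germ cell genes Dppa2, Morc1 and Mageb2 had means of 9.06, 10.1 and 35.2 FPKM and shares of 13.5%, 10.8% and 14.7%. Cyct, the testis cytochrome c, had a mean of 33.6 FPKM and a share of 15.7%. In BF10 replicate 2 Hoxd13, Nkx2-5, Alx1, Mageb2 and Cyct were listed at 0. The list was chosen by these values, so nothing is tested on it.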
